A study of Mus musculus with 9 samples.

Results

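Tbx21, Eomes, Hlx and Twist1 encode T-bet, Eomesodermin, HLX and TWIST1, the transcription factors most often named with the Th1 fate of helper T cells. They were taken from the deposited expression table by gene symbol and make up 4 of its 22017 genes. The table covers 9 libraries of messenger RNA from wild-type C57BL/6 mouse spleen T cells, 3 in each of 3 groups. All groups started as naive T cells that were activated through CD3 and CD28 for 3 days and received IL-2 at 100 U/mL from day 5. They had a second activation on day 7 with anti-CD3 and anti-CD28 at 0.05 ug/mL each, and gave RNA on day 10. Th1 cells (Th1-1 in the labels) had IL-12 at 10 ng/mL with an antibody against IL-4 in both phases. Th17 cells (Th17-17) had IL-6 at 20 ng/mL, IL-1beta at 10 ng/mL and TGF-beta at 1 ng/mL in both phases, with IL-4, IL-12 and interferon-gamma blocked by antibodies. Th17-derived Th1 cells (Th17-1) had the Th17 medium first and the Th1 medium from day 7. No group was left in neutral medium, and the labels do not say whether the 3 libraries of a group came from separate animals or cultures, so the p-values speak of the spread among these libraries only, which may be technical.

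T-bet is induced in an activated helper cell by interferon-gamma and by IL-12, binds DNA through its T-box domain, and turns on Ifng, Cxcr3 and other Th1 genes while holding back the Th2 and Th17 programs. Eomesodermin carries a related T-box and is best known in CD8 T cells and natural killer cells, where it drives Ifng, perforin and the IL-2 receptor beta chain. HLX is a homeobox protein that T-bet induces and that supports Ifng expression, and TWIST1 is a basic helix-loop-helix protein that accumulates in repeatedly activated Th1 cells and restrains their inflammatory output.

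In the GENCODE annotation of GRCm38, Tbx21 (ENSMUSG00000001444.2) lies on the minus strand at chr11:97098071-97115331. Its transcript tagged as principal, the kind given here for each member, has 6 exons and 2488 bases. Eomes (ENSMUSG00000032446.14) lies on the plus strand at chr9:118478212-118486132, with 6 exons and 3560 bases. Hlx (ENSMUSG00000039377.7) lies on the minus strand at chr1:184727140-184732619, with 4 exons and 2278 bases, and Twist1 (ENSMUSG00000035799.6) on the plus strand at chr12:33957671-33959829, with 2 exons and 1628 bases. The only annotated gene that overlaps a member is the antisense gene Gm33460 at Eomes, which is not listed in the table. Whether reads were counted by strand is not given in the sources used here, so reads of Gm33460 and Eomes cannot be told apart.

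The 250 bases before the RefSeq start of 3 members are printed (GRCm38.p6), because the T-box pair differed in direction between the groups while Twist1 was all but restricted to one of them. Tbx21 is read from the minus strand at chr11:97115332-97115581, Eomes from the plus strand at chr9:118477939-118478188 and Twist1 from the plus strand at chr12:33957421-33957670. All 4 members were found in the promoter table. The window of Hlx runs into its annotated transcript and is not printed, but was searched in the same way. Capitals mark the matches on either strand to the T-box core GGTGT, the GC box GGGCGG, the CCAAT box and the TATA box TATAAA.

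Tbx21: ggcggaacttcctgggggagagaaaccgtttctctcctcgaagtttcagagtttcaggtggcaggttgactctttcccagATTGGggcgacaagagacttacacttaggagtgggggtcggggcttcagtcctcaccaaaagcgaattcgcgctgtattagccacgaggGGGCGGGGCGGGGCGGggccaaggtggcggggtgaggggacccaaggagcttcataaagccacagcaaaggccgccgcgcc
Eomes: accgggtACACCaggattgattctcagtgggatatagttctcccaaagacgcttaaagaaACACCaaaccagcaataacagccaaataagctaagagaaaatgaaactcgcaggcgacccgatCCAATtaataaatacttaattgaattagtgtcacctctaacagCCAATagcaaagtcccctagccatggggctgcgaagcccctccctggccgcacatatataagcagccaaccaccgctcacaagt
Twist1: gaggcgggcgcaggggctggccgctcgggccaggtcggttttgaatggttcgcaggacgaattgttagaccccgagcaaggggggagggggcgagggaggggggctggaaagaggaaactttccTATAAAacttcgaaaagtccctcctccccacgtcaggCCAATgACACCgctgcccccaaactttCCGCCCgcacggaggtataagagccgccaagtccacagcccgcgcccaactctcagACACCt

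The T-box core GGTGT had 2 matches in the window of Eomes and 2 in that of Twist1, and 36.2% of all 32851 windows of this length in the table hold at least 1. The longer T-box site GGTGTGA was found in none of the 4 windows and in 3.33% of all. The STAT motif TTCNNNGAA, present in 7.02% of windows, and the RUNX motif TGTGGT, present in 14.05%, were likewise found in none of the 4. The GC box had 3 matches in Tbx21 that overlap by 1 base each in the printed run and 1 in Twist1, against 32.74% of all windows with at least 1. CCAAT was found in each of the 4 windows and in 33.85% of all, while TATAAA was found in Twist1 alone among the 4 and in 12.37% of all. The bases G and C made up 60.8% of the window of Tbx21 and 62.4% of that of Twist1, against 46.4% for Eomes, 41.6% for Hlx and a median of 52.4% over all windows. These are matches of letters in 1 short window and say nothing about which factor binds there.

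Values are FPKM, fragments scaled by transcript length and by library size, so levels of different genes can be set side by side within a library. Between groups a shift of the median gene remained, which is given below with another scaling. The read depth behind them is unknown, and no counting interval can be given. A library summed to between 382581 and 405985 FPKM, and libraries of the same group correlated at 0.988 to 0.997 across genes against 0.965 to 0.990 between groups (genes are not independent replicates). The 11 T cell genes in the marker list summed to between 1619 and 1831 FPKM in every library. Replicate 3 of each group stood apart in CD8 genes: Cd8a was at 104 to 141 FPKM in the replicate 3 libraries and at 15.3 to 54.9 FPKM in the other 6. At each replicate number it was highest in the Th17 library (37.4, 54.9 and 141 FPKM, against 15.3, 19.0 and 117 FPKM in Th1 and 17.4, 27.4 and 104 FPKM in Th17-derived Th1 cells), though the groups overlapped (limma adjusted p of 0.376 to 0.919). Cd4 was at 52.9 to 124 FPKM over all 9. The 5 B cell markers summed to at most 4.01 FPKM and the 10 myeloid markers to at most 7.14 FPKM in any library, with Flt3, Siglech, S100a8 and S100a9 at 0 in all. Ncr1, a defining receptor of natural killer cells, was at most 0.0571 FPKM, Klra4 was at 0 in all libraries, and the natural killer list was mostly Gzma, which helper cells also make. The 11 genes of that list summed to 1949.9 to 3423.5 FPKM in Th1, 686 to 1950 FPKM in Th17-derived Th1 and 333 to 1124 FPKM in Th17 cells. Other genes of that list were present: Klrb1c was at 3.06 to 7.19 FPKM in Th17 cells and at most 1.35 FPKM in the other 6 libraries, and Fcer1g was at 16.8 to 23.6 FPKM in Th17 cells and 7.33 to 12.5 FPKM elsewhere. The 4 gamma-delta T cell markers in the table summed to 0.793 to 2.40 FPKM in Th1, 4.09 to 9.03 FPKM in Th17-derived Th1 and 5.30 to 6.28 FPKM in Th17 cells, mostly Cd163l1, with Sox13 at most 0.543 FPKM.

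Tbx21 fell into 3 separate steps. It was at 92.9, 67.5 and 97.3 FPKM in the 3 Th1 libraries, at 26.7, 24.1 and 48.1 FPKM in Th17-derived Th1 cells and at 6.88, 6.30 and 12.3 FPKM in Th17 cells. Every Th1 library was above every Th17-derived Th1 library, and these were all above every Th17 library. The means were 85.9 ± 16.1, 33.0 ± 13.2 and 8.51 ± 3.33 FPKM (SD, n = 3 each).

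On the log2(FPKM + 1) scale used for all tests, Tbx21 was 3.23 higher in Th1 than in Th17 cells (SE 0.30, 95% interval 2.55 to 3.90, limma with Benjamini-Hochberg adjustment over 10538 genes, adjusted p = 0.000117). That is a 9.37-fold difference on this scale, which understates differences of low genes. In Th17-derived Th1 cells it was 1.82 higher than in Th17 cells (1.15 to 2.50, limma adjusted p = 0.00436), or 3.54-fold. Against Th1 cells it gave a log2 difference of -1.40 (-2.08 to -0.73, limma adjusted p = 0.0205). This last call did not hold in every single omission. The adjusted p rose to between 0.0639 and 0.0898 when Th1 replicate 1, Th1 replicate 3, Th17-derived Th1 replicate 1 or Th17-derived Th1 replicate 2 was left out. The differences were then -1.34 to -1.22. In these bulk samples, fewer cells that express a gene and less RNA per cell cannot be told apart.

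Tbx21 was highest in replicate 3 of each group, by 0.29 log2 units over the mean of replicates 1 and 2 in Th1 cells, 0.90 in the Th17-derived group and 0.81 in Th17 cells. These are the libraries with the high Cd8a values. With the mean log2 value of Cd8a and Cd8b1 in the fit, the 3 differences of Tbx21 were 3.47, 1.99 and -1.48 (limma adjusted p = 5.75e-05, 0.00132 and 0.00572). With replicates 1 and 2 alone they were 3.40, 1.80 and -1.61 (limma adjusted p = 0.000203, 0.00362 and 0.00751). All 3 were as large without the replicate 3 libraries or within 0.02 of the value with them.

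**Figure D1:**
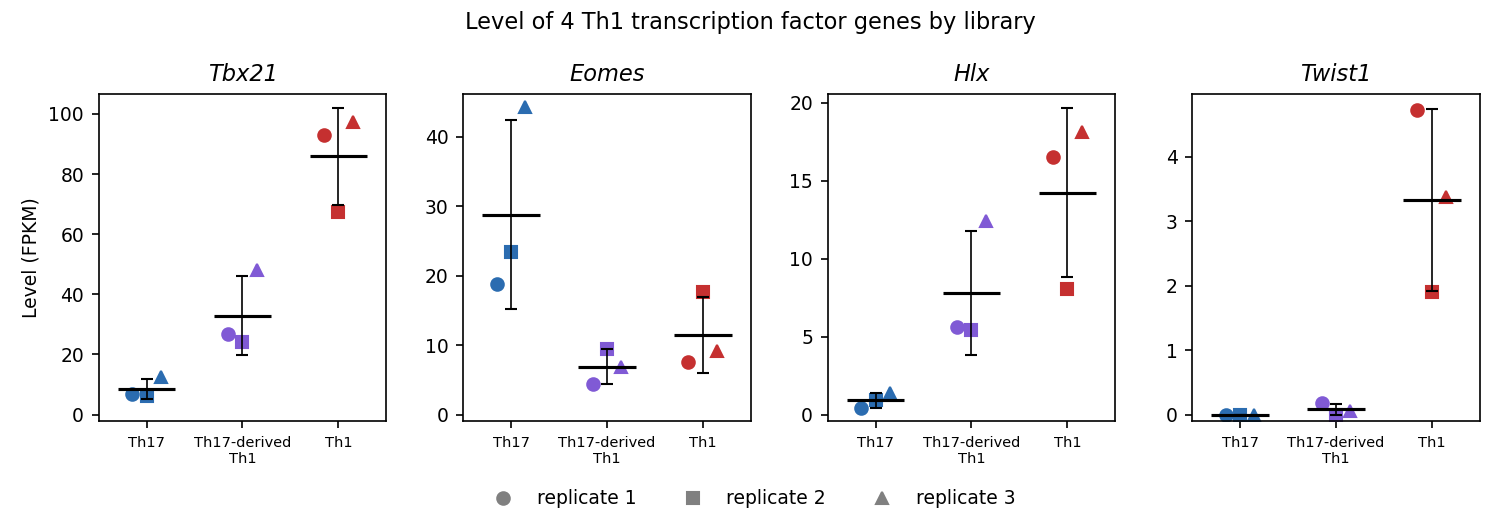
FPKM of Tbx21, Eomes, Hlx and Twist1 in each library (vertical axes, 1 panel per gene with its own scale starting at 0) by group, where points are libraries, the marker shape gives the replicate number, and bars give the mean with its SD, cut off at 0. Tbx21 runs from 6.30 to 12.3 FPKM in Th17 cells and from 67.5 to 97.3 FPKM in Th1 cells, Eomes has its highest values in Th17 cells, and Twist1 is above 1 FPKM in Th1 libraries alone.

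Eomes, the other T-box factor, had the opposite order between Th1 and Th17 cells. It was at 18.8, 23.4 and 44.2 FPKM in the Th17 libraries, at 7.57, 17.7 and 9.11 FPKM in Th1 and at 4.38, 9.40 and 6.80 FPKM in Th17-derived Th1 cells. The Th17 libraries were all above the other 6, though the lowest of them exceeded Th1 replicate 2 by little, and the Th1 and Th17-derived Th1 libraries overlapped. The means were 28.8 ± 13.5, 11.5 ± 5.44 and 6.86 ± 2.51 FPKM (SD, n = 3 each). The CD8 genes and, among natural killer genes, Klrb1c and Fcer1g had their highest means in Th17 cells as well. Gzma, which made up most of the natural killer list, went the other way, with a log2 difference of 2.76 between Th1 and Th17 cells. The part of Klrb1c and Fcer1g in the levels of Eomes was not tested, and fits with the CD8 genes are given with its differences.

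The clearest difference of Eomes was between Th17-derived Th1 and Th17 cells, with a log2 difference of -1.88 (-2.75 to -1.02, limma adjusted p = 0.0116). Between Th1 and Th17 cells it was -1.25 (SE 0.38, -2.11 to -0.39, limma adjusted p = 0.0271). Between Th17-derived Th1 and Th1 cells it was -0.63 (-1.49 to 0.23, limma adjusted p = 0.335), an interval that holds both no difference and a difference of more than 1 log2 unit. The difference between Th1 and Th17 cells moved with replicate 3, whose Th17 library was 1.04 log2 units above the mean of replicates 1 and 2, and with replicate 1 of Th1. With replicates 1 and 2 alone it was -0.80 (limma adjusted p = 0.221), and with the CD8 genes in the fit -1.13 (0.0558). Without Th17 replicate 3, Th17 replicate 2, Th1 replicate 3 or Th1 replicate 1 it was -0.90, -1.35, -1.14 and -1.02 (limma adjusted p = 0.0843, 0.055, 0.086 and 0.091). The difference between Th17-derived Th1 and Th17 cells was -1.79 with the CD8 genes in the fit (limma adjusted p = 0.0196) and -1.55 with replicates 1 and 2 alone (0.082).

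Because both genes are measured per length, the balance of the T-box pair can be read within a library. Tbx21 was 12.3, 3.82 and 10.7 times Eomes in the Th1 libraries and 6.09, 2.56 and 7.08 times Eomes in the Th17-derived Th1 libraries, whereas in the Th17 libraries the ratio was 0.366, 0.270 and 0.279. By these values Eomes was thus the more abundant transcript of the pair in each Th17 library and Tbx21 in each of the other 6. Any reads of the antisense gene Gm33460 cannot be told apart from those of Eomes here. The log2 ratio of FPKM + 1 averaged 2.87 ± 0.87, 2.10 ± 0.73 and -1.61 ± 0.24 in the same order (SD, n = 3 each). Th17 cells differed from Th1 cells by 4.48 and from Th17-derived Th1 cells by 3.71, each with p = 0.1 in a two-sided exact permutation test, the smallest p that 3 libraries against 3 allow. The ratios of Th17-derived Th1 and Th1 cells differed by -0.77 (exact permutation p = 0.3) and overlapped.

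**Figure D2:**
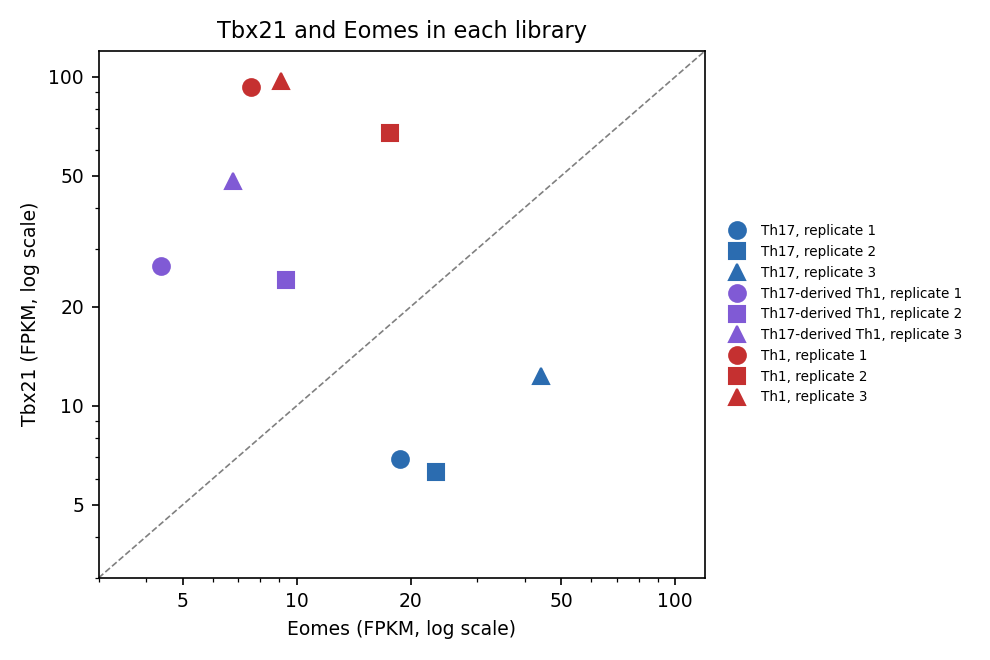
Tbx21 (vertical axis) against Eomes (horizontal axis) in each of the 9 libraries, both in FPKM on log axes, where color gives the group, marker shape gives the replicate number, and the dashed line marks equal levels. The 3 Th17 libraries lie below the line, with ratios of 0.270 to 0.366, and the other 6 lie above it, with ratios of 2.56 to 12.3.

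Hlx followed Tbx21 in the order of its group means. It was at 16.5, 8.05 and 18.1 FPKM in Th1 cells, at 5.60, 5.41 and 12.4 FPKM in Th17-derived Th1 cells and at 0.411, 0.939 and 1.37 FPKM in Th17 cells. All Th17 libraries were below the other 6, and replicate 3 of the Th17-derived Th1 cells was above replicate 2 of the Th1 cells, so those groups overlapped. Hlx was 2.95 higher in Th1 than in Th17 cells on the log2 scale (SE 0.36, 2.14 to 3.77, limma adjusted p = 0.000454), or 7.75-fold. It was 2.15 higher in Th17-derived Th1 than in Th17 cells (1.33 to 2.97, limma adjusted p = 0.00488), or 4.43-fold. Its difference between Th17-derived Th1 and Th1 cells was -0.81 (-1.62 to 0.01, limma adjusted p = 0.195), which became -1.14 (0.0439) without Th1 replicate 2. Like Tbx21, Hlx was highest in replicate 3 of each group, by 0.60, 1.04 and 0.52 log2 units over the mean of replicates 1 and 2 in the same order of groups. With the CD8 genes in the fit its differences were 3.25, 2.35 and -0.89 (limma adjusted p = 0.000168, 0.00144 and 0.0679).

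Twist1 was a low transcript that set Th1 cells apart from both groups that had begun in Th17 medium. It was at 4.72, 1.90 and 3.37 FPKM in Th1 cells, at 0.179, 0 and 0.0630 FPKM in Th17-derived Th1 cells, and was listed at 0 in all 3 Th17 libraries. It was tested only because its 3 Th1 libraries passed the filter of 1 FPKM in 3 libraries, so a difference from the other groups was built into its being tested. Its log2 differences are therefore given as a description, with no test: 2.06 between Th1 and Th17 cells, -1.95 between Th17-derived Th1 and Th1 cells, and 0.11 between Th17-derived Th1 and Th17 cells. No fold is given against groups at or near 0, and the log2 sizes depend on the value of 1 added before the logarithm, with 5.01 between Th1 and Th17 cells when 0.1 was added and 0.72 when 5 was added. With the CD8 genes in the fit the 3 differences were 2.05, -1.95 and 0.10.

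Twist1 is left out of the following counts because of how it passed the filter. Of the other 3 members, 2 were called higher in Th1 than in Th17 cells and 1 lower, in a comparison that called 42.9% of all genes tested, 14.0% higher and 28.9% lower. In Th17-derived Th1 against Th17 cells, 2 were called higher and 1 lower, with 15.9% of all genes called (6.43% higher and 9.49% lower). Against Th1 cells, 1 was called lower in Th17-derived Th1 cells, with 10.5% of all genes called (5.67% higher and 4.81% lower). The libraries of the 2 groups did not overlap for 3, 3 and 1 of these members in the same order of comparisons, and for 52.9%, 43.2% and 29.2% of all genes. These comparisons share their libraries, so they are not independent of each other. The median log2 difference of all genes was -0.17, -0.12 and 0.05 in the 3 comparisons and went to -0.01, -0.01 and 0.00 with median-ratio scaling. That scaling also moved the share of called genes that were higher from 32.7% to 53.9%, from 40.4% to 63.1% and from 54.1% to 45.5%. The direction and call of each member were the same under that scaling.

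**Figure D3:**
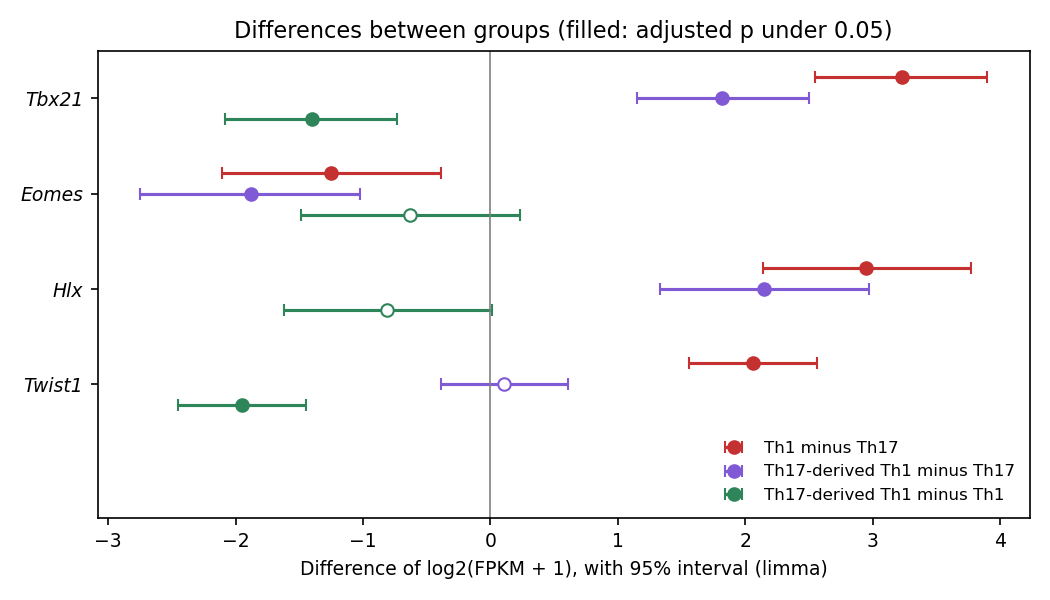
Log2 differences of the 4 members on the log2(FPKM + 1) scale (horizontal axis) in the 3 comparisons between groups, each with its 95% interval from limma, with a line at no difference and filled points for an adjusted p under 0.05. Twist1, which passed the filter through Th1 libraries alone, is drawn for its size and not as a test. Tbx21 lies at 3.23, 1.82 and -1.40, Hlx at 2.95, 2.15 and -0.81, Eomes at -1.25, -1.88 and -0.63 and Twist1 at 2.06, 0.11 and -1.95.

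The members differed in how far Th17-derived Th1 cells stood along the way from Th17 cells (0%) to Th1 cells (100%) on the log2 scale. Tbx21 stood at 56.5% (49.4%, 45.1% and 75.0% for the single libraries), Hlx at 72.7% (61.7%, 60.2% and 96.2%) and Twist1 at 5.3% (11.5%, 0.0% and 4.3%). Eomes stood at 150.4% (190.1%, 114.0% and 147.2%), though its Th17-derived Th1 and Th1 libraries overlapped and did not differ by the test. The 1478 genes called higher in Th1 than in Th17 cells had a median position of 53.0%, so Tbx21 lay close to the middle of these genes, Hlx above it and Twist1 near the Th17 end. No test is given for these positions, because their end points are the same group means as above.

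On the IL-12 path to T-bet, Il12rb2 and Stat4 were expressed in every library and were not called in any comparison, whereas other genes of the path were. Il12rb1, the shared receptor chain, and the kinase Tyk2 were higher in Th1 than in Th17 cells by 0.86 and 0.78 (limma adjusted p = 0.0302 and 0.0079), and the kinase Jak2 was higher in Th17-derived Th1 than in Th17 cells by 0.67 (adjusted p = 0.0356). Il12rb2, the signaling chain of the IL-12 receptor, was at 147, 58.2 and 129 FPKM in Th1 cells, 59.3, 53.4 and 82.0 FPKM in Th17-derived Th1 cells and 60.8, 71.0 and 96.7 FPKM in Th17 cells. The groups overlapped (limma adjusted p of 0.228 to 0.664 over the 3 comparisons). Stat4, the factor it activates, was at 19.1 to 35.6 FPKM in all 9 libraries (limma adjusted p of 0.534 to 0.994).

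The 2 chains of the interferon-gamma receptor moved in opposite directions. Ifngr1, the chain that binds the cytokine, was higher by 1.24 in Th1 than in Th17 cells (limma adjusted p = 0.000569) and by 0.54 in Th17-derived Th1 than in Th17 cells (adjusted p = 0.0497). The latter call was lost in 7 of 9 single omissions, all but those of Th1 replicate 2 and Th17 replicate 3 (0.40 to 0.62, adjusted p up to 0.169). Ifngr2, the chain needed for signaling, was at 0.245, 0.750 and 0.232 FPKM in Th1, 4.23, 4.77 and 4.34 FPKM in Th17-derived Th1 and 16.6, 16.2 and 11.3 FPKM in Th17 cells. The 3 groups of Ifngr2 did not overlap, and all its differences passed the test (log2 differences of -3.48, -1.51 and 1.97, limma adjusted p = 7.03e-06, 0.000987 and 0.000647). Both IL-18 receptor chains were higher in Th1 and in Th17-derived Th1 than in Th17 cells, Il18rap by 2.99 and 2.12 and Il18r1 by 1.89 and 1.39 (limma adjusted p of 0.00016 to 0.00335). Of the 16 genes in the list of signals that induce T-bet, Th1 cells had 8 higher and 1 lower than Th17 cells (median log2 difference 0.48). Th17-derived Th1 cells had 6 higher and 1 lower than Th17 cells (median 0.35) and 2 higher and 2 lower than Th1 cells (median -0.06). In the same order, 42.9%, 15.9% and 10.5% of all genes were called, with medians of -0.17, -0.12 and 0.05. The 6 became 2 without Th17-derived Th1 replicate 1 or 2 or Th17 replicate 1 or 2 and 3 without Th17-derived Th1 replicate 3. The 2 lower than Th1 cells became 0 without Th1 replicate 1 or 3 or Th17-derived Th1 replicate 1 or 2, 1 without Th17 replicate 1 or 2, 3 without Th17-derived Th1 replicate 3 and 5 without Th1 replicate 2.

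Among 9 genes listed as partners of T-bet at chromatin, Th1 cells had 2 higher and 3 lower than Th17 cells (median -0.06). Th17-derived Th1 cells had 2 higher and 2 lower than Th17 cells (median -0.14) and 1 higher and 1 lower than Th1 cells. Over all genes, 42.9%, 15.9% and 10.5% were called in the same order, and the first 2 medians were -0.17 and -0.12. The small counts of the list changed with single libraries: without Th17 replicate 1 or 2, for example, Th1 cells had 1 lower than Th17 cells, Th17-derived Th1 cells had 0 lower than Th17 cells and none was called against Th1 cells. Calls over all genes fell as well without these 2 libraries, from 4526 to 3039 and 3013, from 1678 to 709 and 681 and from 1104 to 758 and 801. Runx3, which binds with T-bet at Ifng, was at 42.5, 41.7 and 38.1 FPKM in Th1, 26.3, 27.0 and 35.3 FPKM in Th17-derived Th1 and 35.7, 40.4 and 45.0 FPKM in Th17 cells. It was thus lowest in Th17-derived Th1 cells, with log2 differences of -0.45 from Th17 (limma adjusted p = 0.0488) and -0.46 from Th1 cells (adjusted p = 0.0547). The first was called in 2 of 9 single omissions, those of Th1 replicate 2 and Th17-derived Th1 replicate 3, and otherwise ran from -0.53 to -0.37 (adjusted p up to 0.156). Bhlhe40, a basic helix-loop-helix factor that supports cytokine production, was higher by 2.23 in Th1 and by 1.24 in Th17-derived Th1 than in Th17 cells (limma adjusted p = 0.000251 and 0.00914). Kdm6b, a histone H3 lysine demethylase that T-bet can recruit, was lower in both, with log2 differences of -1.09 and -0.56 (limma adjusted p = 0.000342 and 0.017). The second was lost without Th17-derived Th1 replicate 3 or Th17 replicate 1 or 2 (-0.58 to -0.50, adjusted p of 0.0567 to 0.0754).

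Of 10 transcription factors of effector T cells, 8 were higher and 0 lower in Th1 against Th17 cells (median 1.89). In the other comparisons, 7 were higher and 0 lower in Th17-derived Th1 than in Th17 cells (median 1.18), and 0 were higher and 5 lower in Th17-derived Th1 than in Th1 cells (median -0.68). The shares of all genes called were 42.9%, 15.9% and 10.5% in the same order. The 7 became 4 without Th17 replicate 1 or 2, and the 5 became 1 without Th1 replicate 1 or 3 or Th17-derived Th1 replicate 1 or 2 and 3 without Th17 replicate 1 or 2. Bhlhe40 belongs to this list as well. Hopx, a homeodomain protein without DNA binding of its own, was at 179, 151 and 203 FPKM in Th1, 55.3, 56.2 and 114 FPKM in Th17-derived Th1 and 15.5, 15.1 and 35.6 FPKM in Th17 cells, without overlap. Zeb2, a zinc finger repressor that T-bet induces in effector CD8 cells, was higher by 2.10 and 1.37 than in Th17 cells (limma adjusted p = 4.31e-05 and 0.000905), and Prdm1, which encodes BLIMP-1, by 1.96 and 1.16 (0.00012 and 0.00346). Zfp683, which encodes the BLIMP-1 relative HOBIT, was higher in Th1 than in either other group, by 1.28 over Th17 (limma adjusted p = 0.00382) and with a log2 difference of -1.97 for Th17-derived Th1 against Th1 cells (adjusted p = 0.00256).

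Of 21 genes listed as induced by T-bet, 20 were tested and S1pr5 was below the filter. Hopx, Zeb2, Runx3, Il2rb, Il12rb2, Il18r1 and Il18rap of the lists above are among them. In Th1 against Th17 cells 17 were higher and 0 lower, with a median log2 difference of 2.45. In Th17-derived Th1 against Th17 cells 11 were higher and 2 lower (median 1.38), and against Th1 cells 0 were higher and 10 lower (median -0.76). With replicates 1 and 2 alone these counts were 17 and 0, 13 and 2, and 0 and 8, and over the omission of single libraries the count lower than Th1 cells ranged from 1 (without Th17-derived Th1 replicate 1 or 2) to 13 (without Th17-derived Th1 replicate 3), with 2 and 5 without Th1 replicate 3 and replicate 1. With all libraries, 42.9%, 15.9% and 10.5% of all genes were called in the same order of comparisons.

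Ifng itself was at 1005, 2013 and 1137 FPKM in Th1, 975, 990.3 and 717 FPKM in Th17-derived Th1 and 19.9, 14.2 and 40.7 FPKM in Th17 cells. Its log2 differences were 5.80 and 5.23 from Th17 cells (limma adjusted p = 1.78e-05 and 9.04e-05). Between Th17-derived Th1 and Th1 cells it differed by -0.58 (-1.41 to 0.26, adjusted p = 0.362), and the libraries did not overlap. Ccl5, a chemokine of Th1 and cytotoxic cells, was at 509, 188 and 536 FPKM in Th1, 78.7, 83.2 and 167 FPKM in Th17-derived Th1 and 6.35, 6.05 and 8.47 FPKM in Th17 cells, 3 groups without overlap. Furin, a protease that T-bet and STAT4 induce, was higher by 3.99 and 3.29 than in Th17 cells, and Prf1, which encodes perforin, by 3.76 and 3.21 (limma adjusted p of 2.02e-06 to 0.00253).

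Several genes of this list were high in Th1 cells and no higher in Th17-derived Th1 than in Th17 cells by the test. Cxcr3, the chemokine receptor that marks Th1 cells, was at 68.0, 35.8 and 61.2 FPKM in Th1, 10.2, 11.5 and 24.7 FPKM in Th17-derived Th1 and 11.7, 14.6 and 24.9 FPKM in Th17 cells. Replicates 1 and 2 of Th17-derived Th1 cells were below every Th17 library and replicate 3 was within their range, with a log2 difference of -0.18 (-1.03 to 0.68, limma adjusted p = 0.771). Th17-derived Th1 and Th1 cells differed by -1.82 (adjusted p = 0.0186, and 0.0614 to 0.0848 without replicate 1 or 3 of Th1 or replicate 1 or 2 of Th17-derived Th1 cells). Fasl, the death ligand of effector cells, gave -0.22 from Th17 (-1.09 to 0.64, limma adjusted p = 0.707) and -1.78 from Th1 cells (adjusted p = 0.021). The latter call was lost at least without Th1 replicate 3 or Th17-derived Th1 replicate 1 or 2. The inhibitory receptor gene Klrg1 gave 0.82 (limma adjusted p = 0.152) and -1.99 (0.0117, and 0.0533 or 0.0588 without Th17-derived Th1 replicate 1 or 2). Xcl1, a chemokine of activated CD8 and natural killer cells, was lower in Th17-derived Th1 cells than in both others (limma adjusted p = 0.00579 and 0.000741). It was at 6.15, 11.2 and 7.43 FPKM there, against 37.6, 20.2 and 50.3 FPKM in Th1 and 56.9, 56.7 and 58.0 FPKM in Th17 cells. Over the 17 genes called higher in Th1 than in Th17 cells, the position of Th17-derived Th1 cells ran from -14.4% for Fasl to 90.1% for Ifng, with a median of 66.9%.

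**Figure D4:**
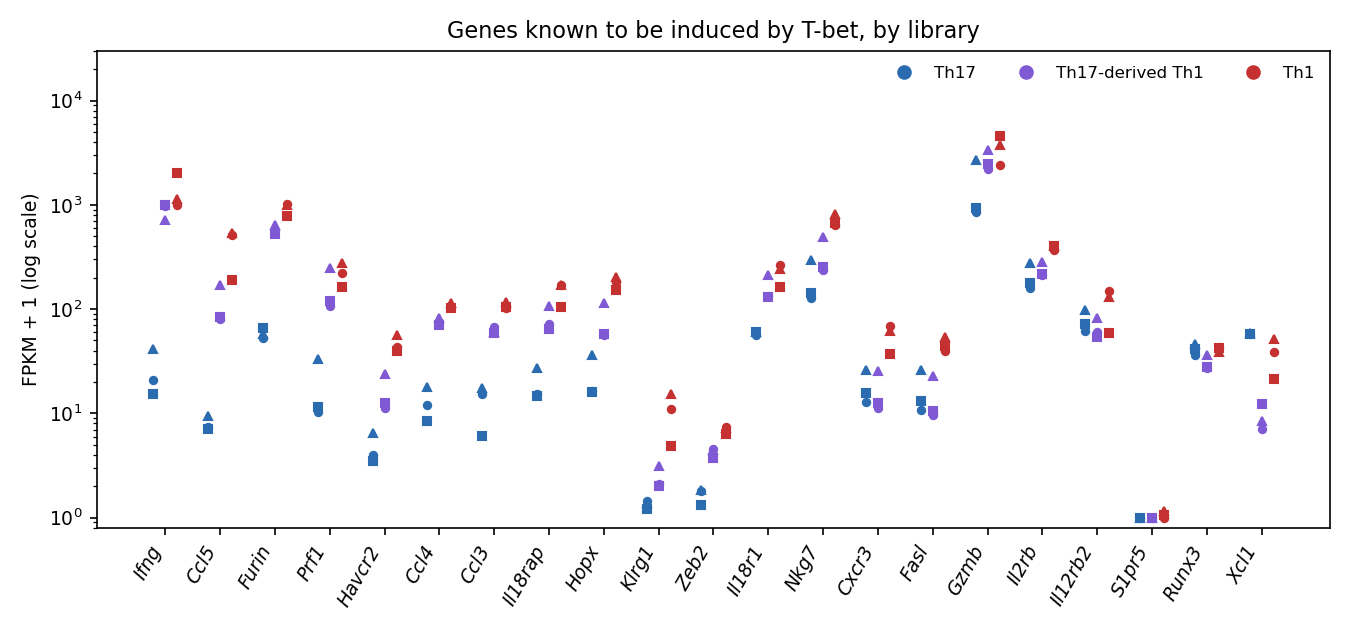
FPKM + 1 on a log axis (vertical) for each gene of the list of genes induced by T-bet (horizontal), where points are the 9 libraries, color gives the group, marker shape gives the replicate number (circle 1, square 2, triangle 3) and genes are sorted by the difference of Th1 from Th17 means. Ifng, Ccl5, Furin and Prf1 on the left are above every Th17 library in both other groups, whereas for Cxcr3 and Fasl 2 of the 3 Th17-derived Th1 libraries lie below every Th17 library and the other within their range.

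Of 13 genes listed as repressed by T-bet, 11 were tested, and Il5 and Il2 were below the filter. In Th1 against Th17 cells 5 were lower and 1 higher (median -0.41), in Th17-derived Th1 against Th17 cells 2 were lower and 1 higher (median -0.08), and in Th17-derived Th1 against Th1 cells 1 was lower and 2 higher (median 0.28). All genes had 42.9%, 15.9% and 10.5% called and medians of -0.17, -0.12 and 0.05 in that order. Socs3, an inhibitor of IL-6 and IL-12 signaling, was near its Th17 level in Th17-derived Th1 cells and higher than in Th1 cells, with log2 differences of 0.13 from Th17 (limma adjusted p = 0.626) and 1.74 from Th1 cells (adjusted p = 0.000904). The cytokine genes Il17a and Il17f, at 2.99 to 6.16 and 7.58 to 8.77 FPKM in Th17 cells, were at most 0.160 and 0.408 FPKM in Th17-derived Th1 cells, and in Th1 cells Il17a was listed at 0 and Il17f was at most 0.0386 FPKM. Both passed the filter through the Th17 libraries alone, so their calls, which are part of the counts lower than Th17 cells, were built in. Without any 1 Th17 library they were not tested, and the counts lower than Th17 cells fell to 2 or 3 in Th1 and 0 in Th17-derived Th1 cells. Pdcd1, which encodes the inhibitory receptor PD-1, was higher in both, by 1.85 and 1.27 (limma adjusted p = 8.6e-05 and 0.00132). Gata3, the Th2 factor, was at 5.86 to 8.35 FPKM in all libraries, with limma adjusted p of 0.722 to 0.934.

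Of 12 genes linked to Eomes in CD8 and natural killer cells, some of which the list of T-bet-induced genes also holds, Th1 cells had 8 higher and 0 lower than Th17 cells (median 1.54). Th17-derived Th1 cells had 3 higher and 1 lower than Th17 cells (median 0.33) and 0 higher and 5 lower than Th1 cells (median -0.56). Beside these, 42.9%, 15.9% and 10.5% of all genes were called in the same order. The 3 became 5 without Th17 replicate 3, and the 5 became 1 without Th17-derived Th1 replicate 1 or 2, 2 without Th1 replicate 3 and 3 without Th1 replicate 1. Gzmk, a granzyme of memory CD8 cells, was at 26.7, 26.2 and 50.4 FPKM in Th1, 2.01, 4.95 and 8.47 FPKM in Th17-derived Th1 and 2.45, 3.28 and 11.2 FPKM in Th17 cells. The Th1 libraries were above the other 6 (log2 differences of 2.58 and -2.61, limma adjusted p = 0.00519 and 0.0179). The second of these was lost without Th1 replicate 3 or Th17-derived Th1 replicate 1 or 2 (-2.66 to -2.17, adjusted p of 0.0655 to 0.0746). Il2rb, the IL-2 and IL-15 receptor beta chain, was at 371, 405 and 398 FPKM in Th1, 213, 216 and 285 FPKM in Th17-derived Th1 and 159, 176 and 276 FPKM in Th17 cells. The Th1 libraries were above all others (limma adjusted p = 0.0045 and 0.0477). Its second call was lost in 7 of 9 single omissions, all but those of Th17-derived Th1 replicate 3 and Th17 replicate 3 (-0.77 to -0.65, adjusted p up to 0.172). Cd226, an activating receptor, was lowest in Th17-derived Th1 cells, at 13.2, 11.9 and 17.2 FPKM against 28.4 to 39.5 FPKM in the other 6 libraries (limma adjusted p = 0.00135 and 0.00276). Il10 was about as high in Th17-derived Th1 as in Th1 cells, with means of 94.6 and 93.9 FPKM and a difference of 0.04 (-0.54 to 0.62), and 2.85 and 2.81 above Th17 cells (limma adjusted p = 0.00025 and 0.000108).

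Most of the rest of the T-box family was below the filter. Of 17 family members in the list, 4 were tested: Tbx21, Eomes, Mga and Tbx6. T, Tbx1, Tbx4, Tbx5, Tbx10, Tbx20 and Tbx22 were listed at 0 in all 9 libraries. Mga, a T-box protein that pairs with MAX, was at 10.0 to 11.0 FPKM in Th17 cells, 6.76 to 8.24 FPKM in Th17-derived Th1 and 5.55 to 6.22 FPKM in Th1 cells. Its log2 differences from Th17 cells were -0.44 and -0.76 (limma adjusted p = 0.0173 and 0.000576). The first was lost without Th17-derived Th1 replicate 1 or 3 or Th17 replicate 1 or 2 (-0.45 to -0.38, adjusted p of 0.0555 to 0.0801). Tbx6, a mesoderm factor, was at 0.180 to 4.84 FPKM, with limma adjusted p of 0.07 to 0.995.

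Among proteins that pair with TWIST1 or compete for its partners, the E proteins Tcf3, Tcf4 and Tcf12 were not called in any comparison, and Twist2 and Id1 were below the filter. The inhibitors of the family differed from each other. Id2, which effector cells carry, averaged 364 FPKM in Th1, 238 FPKM in Th17-derived Th1 and 107 FPKM in Th17 cells (1.83 and 1.20 above Th17, limma adjusted p = 0.00123 and 0.0204). Its second difference was 0.98 to 1.25 and no longer called (adjusted p of 0.0511 to 0.0901) without Th17-derived Th1 replicate 2 or 3 or Th17 replicate 1 or 2. Id3, which memory and follicular cells carry, was at 1.98, 4.98 and 1.37 FPKM in Th1, 14.6, 17.8 and 9.87 FPKM in Th17-derived Th1 and 11.9, 13.5 and 8.73 FPKM in Th17 cells. It was lower in Th1 than in both others (limma adjusted p = 0.00318 and 0.00668).

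Of 13 factors of other helper fates, Th1 cells had 3 higher and 6 lower than Th17 cells (median -0.23). Th17-derived Th1 cells had 2 higher and 2 lower than Th17 cells (median -0.11) and 5 higher and 0 lower than Th1 cells (median 0.12). In the same order, 14.0% of all genes were called higher and 28.9% lower, 6.43% and 9.49%, and 5.67% and 4.81%. The all-gene medians were -0.17, -0.12 and 0.05, so the first 2 medians of this list were near those of all genes. Tcf7 and Maf, which encode TCF-1 and c-MAF, were near their Th17 level in Th17-derived Th1 cells, with log2 differences of -0.31 and 0.53 from Th17 (limma adjusted p = 0.577 and 0.179) and of 2.60 and 2.04 from Th1 cells (0.0035 and 0.00237). Ahr and Foxp3, which encode the aryl hydrocarbon receptor and the regulatory T cell factor, were lower than in Th17 cells in both Th1 (-2.99 and -2.81) and Th17-derived Th1 cells (-1.91 and -1.69), with limma adjusted p of 2.38e-05 to 0.00686. Bcl6, the follicular helper factor, was at 1.33 to 7.87 FPKM in the 9 libraries with overlap of all groups (limma adjusted p of 0.432 to 0.649).

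Over the 9 libraries, Tbx21 and Hlx had a Pearson correlation of 0.97 on the log2 scale, Tbx21 and Twist1 of 0.82, and Tbx21 and Eomes of -0.57. These values describe 3 groups of 3 libraries that share their medium, and carry no p. Among 7928 genes with a mean of at least 5 FPKM, the patterns most like that of Tbx21 were those of Hopx, Havcr2 and Serpine2 (each 0.995), Zmat3 (0.993) and Glipr1 (0.992). Nearest to Hlx were Mxd1 (0.994), Il18r1 (0.992), Crem (0.991), Rtf2 (0.990) and Asl (0.987), and nearest to Twist1 were Gprin3 (0.988), Ahcyl1 (0.986), Tax1bp1 (0.979), Anxa4 (0.974) and Gnpda1 (0.971). For Eomes the values were lower, with Tmem104 at 0.967, Mfn1 at 0.959, B4galt5 at 0.948, Oxct1 at 0.946 and Amdhd2 at 0.942. Havcr2, which encodes the inhibitory receptor TIM-3, averaged 45.3 FPKM in Th1, 14.9 FPKM in Th17-derived Th1 and 3.67 FPKM in Th17 cells, the same descending steps as Tbx21.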

How the data were processed

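Messenger RNA was sequenced from 9 libraries of mouse T cells, grouped by their titles. The authors deposited FPKM values, fragments scaled by transcript length and library total, for 22017 gene symbols. Per the submitters' processing notes, HISAT2, DESeq2 and the mm10 build were used, with versions, roles, annotation and the handling of strand and of multiply mapping reads not given in the sources used here. Whole-read steps were looked for among low genes and not found: the most frequent ratio of 2 libraries held for 0.555% to 0.976% of these genes within 0.01 log2 units, which leaves the depth unknown.

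Values were tested as log2(FPKM + 1) with limma 3.58.1 (R 4.3.3) and a mean-variance trend over all 9 libraries, with 6 residual degrees of freedom before moderation. The 10538 genes that reached 1 FPKM in 3 or more libraries were kept. Two-sided p-values were adjusted over these by the Benjamini-Hochberg method at a threshold of 0.05. The difference of Tbx21 and Eomes within a library was compared by exact permutation. The fit was tested on simulated data. Python 3.11.15, pandas 2.3.3, scipy 1.17.1 and matplotlib 3.10.9 were used.

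The members and gene lists were chosen with earlier results of these data known, so list counts are descriptions beside those of all genes. Named genes were the members, up to 4 called genes per list, direction and comparison with the largest difference, genes directly up- or downstream of the members, and for each member the 5 nearest patterns. Gene positions came from the GENCODE M21 annotation of GRCm38, which is the mm10 assembly, and promoter windows from RefSeq (GRCm38.p6). Proteins were not used here.

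Alternatives were pseudocounts of 0.1 and 5, no filter or a filter of 5 FPKM, equal-sum, median-ratio and quantile scaling, fits of 2 groups, a replicate block, replicates 1 and 2 alone, the mean log2 value of Cd8a and Cd8b1 as a covariate, and the omission of each library. Some genes under the naming rule are not reported here.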

Additional observations from a re-analysis of the deposited data

How the results depend on the processing

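Of the 12 member results, 8 kept their direction and side of the threshold under each alternative that could be fitted, and none reversed. Both counts include the Twist1 results, which were built in by the filter and say nothing about stability. The calls that changed belong to Tbx21 between Th17-derived Th1 and Th1 cells (-1.70 to -1.22 over single omissions), Eomes between Th1 and Th17 cells (-1.59 to -0.90 over single omissions, -1.25 with adjusted p = 0.0538 without a filter, -1.13 with the CD8 covariate, -0.80 with replicates 1 and 2), Eomes between Th17-derived Th1 and Th17 cells (-2.13 to -1.53, and -1.55 with replicates 1 and 2) and Hlx between Th17-derived Th1 and Th1 cells (-1.15 to -0.61). The cause was not tested, beyond the fewer libraries in the fits that left some out. Twist1 could not be tested with the filter of 5 FPKM, with replicates 1 and 2 alone or without any 1 of the Th1 libraries. Replicate numbers were not taken as pairs, since the labels state no block. Same-numbered deviations correlated at -0.178 to 0.659, with 4 of 9 pairs above 0.1, and those of different numbers at -0.646 to 0.459. Of 18 best matches, 9 shared a number. These values do not settle whether the numbers mark pairs. With the number as a replicate block, all 12 member results, called or not and with Twist1 among them, stayed on their side of the threshold. Tbx21 was at 3.23 between Th1 and Th17 cells (SE 0.15 against 0.30, limma adjusted p = 3.03e-05). That fit called 4452, 1681 and 1255 genes, against 4526, 1678 and 1104. Counts of calls reached 3013 without Th17 replicate 2 in Th1 against Th17 cells, ran from 681 to 2342 over single omissions in Th17-derived Th1 against Th17 cells (1036 with replicates 1 and 2), and from 315 to 1861 against Th1 cells (703 with 2 groups, 596 with replicates 1 and 2). Of 117 other called gene results, 76 were the same throughout and none reversed. The depth is unknown, so no value has a counting interval.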
